A study of Trichoderma reesei QM6a with 6 samples.

Results

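Trichoderma reesei is a filamentous fungus of the soil that is grown for its secreted enzymes, and in it the zinc finger protein Ace1 is known as a repressor of cellulase and xylanase genes. The 38 genes described here were abundant in the strain QM6a and far lower, though not all scarce, in an ace1 deletion made in that strain (Δace1). They were chosen from 9113 genes by their levels, as those with a mean of at least 600 normalized counts in QM6a and a Δace1 mean of at most 10% of it, with the deleted gene left out. A normalized count is here the authors' count of a gene divided by 1 size factor per library. Because these means chose the genes, their levels and fold changes are a description and carry no test. RNA was taken from 3 libraries of Δace1 and 3 of QM6a. The deletion strain is labelled delta_ace1 in the QM6a background and QM6a itself is labelled wildtype. Both strains had grown in MA medium with 1% D-glucose for 24 h in shake flasks at 28 °C and 250 rpm, and the washed mycelium was then kept for 3 h on the sugar alcohol D-mannitol at 1%. The labels do not say whether the deletion is 1 clone or several, nor whether the replicates are separate cultures, so p-values measure only the spread between these samples, which may be technical.

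The level of a transcript is the balance of its synthesis and its decay, and a repressor is known for lowering the synthesis of its target transcripts. Among the most abundant transcripts of a growing fungus are those of ribosomal proteins, which build the small and large ribosomal subunits and are made in step with growth. The reference table names only 1 of the 38 genes, rpl35, whose product is a protein of the large ribosomal subunit. The other 37 are known by locus tag alone, and no function is given to them here.

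Library totals ran from 5482552 to 6424125 estimated counts for Δace1 and from 6072118 to 6938203 for QM6a. A floor of 3 counts corresponds to 0.432 to 0.547 CPM (counts scaled to a common total), which covers counting error only. The deleted gene ace1 had 6, 7 and 14 counts in the Δace1 libraries, against 8432, 7765 and 8001 in the QM6a libraries, which matches the label of each library. The conidial pigment gene pks4 (TRIREDRAFT_82208), which marks conidia, stayed at 7, 8 and 12 counts in the Δace1 libraries, against 4, 8 and 5 in the QM6a libraries. Replicates differed by more than counting error, with a chi-square over its degrees of freedom of 4.19 between Δace1 replicates 1 and 2 and of 28.5 and 21.3 between these and replicate 3. In QM6a it was 10.3 and 12.5 between replicate 1 and the other two, and 2.96 between replicates 2 and 3. The rule chose 37 genes without Δace1 replicate 3, 36 of them among the 38, and 37 without QM6a replicate 1, 34 of them among the 38. In RNA from whole mycelium, fewer cells that express a gene and less of its RNA per cell cannot be told apart.

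In the Δace1 libraries the 38 genes held 0.532 ± 0.0173% of the estimated counts, against 6.35 ± 0.290% in the QM6a libraries (SD, n = 3 each). The share ranged from 0.512% to 0.542% among the Δace1 libraries and from 6.12% to 6.68% among the QM6a libraries, and no 95% Wilson interval of a library was wider than 0.0381 percentage points. Without Δace1 replicate 3 the Δace1 mean was 0.527%, and without QM6a replicate 1 the QM6a mean was 6.19%. This share, which amounts to scaling each library by its total, was 11.9-fold lower in Δace1. By QM6a normalized count the 3 most abundant of them were TRIREDRAFT_121820, TRIREDRAFT_121251 and TRIREDRAFT_68812. These 3 held 0.118 ± 0.00353% of the counts in Δace1 and 2.06 ± 0.214% in QM6a. In QM6a this was 32.5% of what the 38 genes held. On TPM, which is corrected for length and has the same sum in every library, the 38 genes held 0.503 ± 0.0157% in Δace1 and 4.32 ± 0.175% in QM6a.

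**Figure D1:**
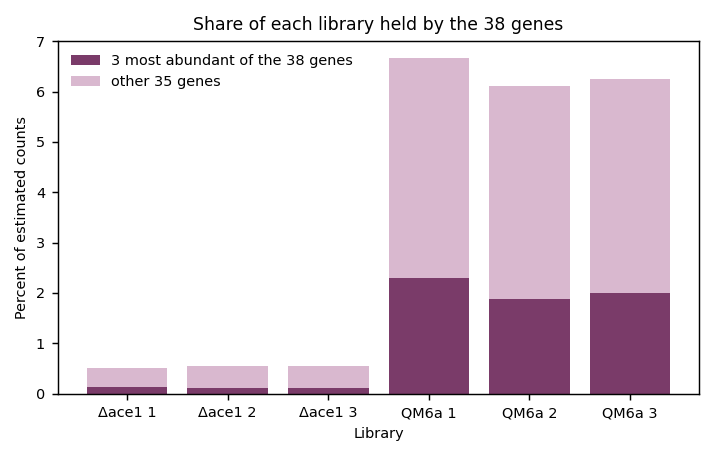
Percent of the estimated counts of each library held by the 38 genes, with Δace1 libraries left and QM6a libraries right. The darker shade is the part of the 3 genes with the highest QM6a normalized counts. The QM6a bars reach 6.12% to 6.68%, and no Δace1 bar passes 0.542%.

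Across the 38 genes the Δace1 means ran from 11.2 to 4628 normalized counts, with a median of 169.5, and the QM6a means from 729 to 55435, with a median of 5397. The median gene stood 14.4-fold lower in Δace1, and the most extreme 673-fold. In each of the 38 genes every Δace1 library lay below every QM6a library, which also held for 74.8% of the 2154 genes with a QM6a mean of at least 600. All 38 passed the filter on low counts. In edgeR's quasi-likelihood test over 7769 genes all 38 were called lower in Δace1 at a Benjamini-Hochberg adjusted p below 0.05, and so were 39.5% of all tested genes and 73.2% of those with a QM6a mean of at least 600. Since the rule used the same contrast, nothing is read from these counts. The median log2 change was -3.82 over the 38 genes, -0.71 over the genes with a QM6a mean of at least 600 and 0.03 over all tested genes.

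**Figure D2:**
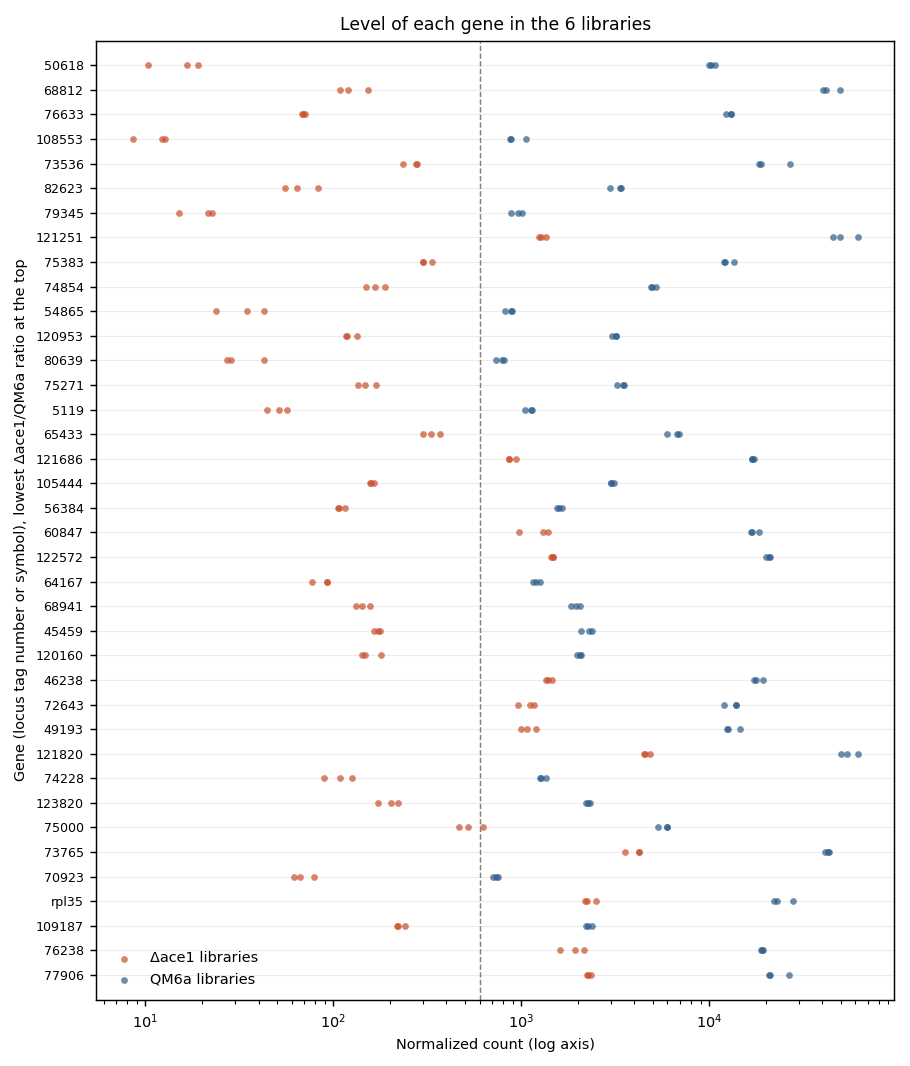
Normalized count of each of the 38 genes in the 3 Δace1 libraries and the 3 QM6a libraries on a log axis, 1 point per library, with the lowest ratio of the strain means at the top and a dashed line at 600. The Δace1 points lie left of the QM6a points in each row, and 12 genes have a Δace1 mean of at least 600.

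In 3 genes the Δace1 mean was below 1% of the QM6a mean. TRIREDRAFT_50618 had 10.3, 16.6 and 18.97 normalized counts in the Δace1 libraries, against 10751, 9939.9 and 10179 in the QM6a libraries, a mean of 15.3 ± 4.46 in Δace1 and 10290.1 ± 417 in QM6a (SD, n = 3 each). Its Δace1 mean was 0.149% of its QM6a mean, or 673-fold lower, with a log2 change of -9.38 (standard error 0.14). By normalized count, which also grows with length, it held rank 7534 among 9113 genes in Δace1 and rank 124 in QM6a. The Δace1 values rest on 13, 19.1 and 20.1 estimated counts, a few times the floor. TRIREDRAFT_68812 had 108, 119.6 and 154 normalized counts in the Δace1 libraries, against 49756, 40142 and 42034 in the QM6a libraries. It stood at rank 5608 in Δace1, against rank 10 in QM6a, and was 346-fold lower, with a log2 change of -8.42 (standard error 0.16). TRIREDRAFT_76633 had 70.7, 68.9 and 68.3 normalized counts in the Δace1 libraries, against 12297, 13094 and 13116 in the QM6a libraries, which is 185-fold lower in Δace1. Its Δace1 libraries lay close together, with a coefficient of variation of 1.82%, below the 11.2% of counting error alone at that depth.

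A further 12 genes had a Δace1 mean between 1% and 5% of the QM6a mean. Of these, TRIREDRAFT_108553 had the lowest Δace1 mean of the 38 by normalized count, with 12.7, 12.2 and 8.53 normalized counts in the Δace1 libraries, against 1062, 886 and 872 in the QM6a libraries, 84.3-fold lower. Its Δace1 libraries held 16, 14 and 9 estimated counts, the last being the lowest count of any of the 38 genes in a library. TRIREDRAFT_73536 had 234, 278 and 276 normalized counts in the Δace1 libraries, against 26845, 18418 and 18802 in the QM6a libraries. It was 81.4-fold lower in Δace1, and in QM6a its replicate 1 stood above the other two. TRIREDRAFT_82623, with 55.6, 63.7 and 82.5 normalized counts in the Δace1 libraries, against 2956, 3355 and 3409.9 in the QM6a libraries, was 48.2-fold lower, and TRIREDRAFT_79345, with 21.5, 22.7 and 15.2 in the Δace1 libraries, against 1005, 963 and 886 in the QM6a libraries, was 48.1-fold lower. The Δace1 libraries of these 2 genes lay within a factor of 2 of each other and far from any QM6a library.

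TRIREDRAFT_121251 stood apart among these 12 genes in keeping a high level. It had 1269, 1245 and 1356 normalized counts in the Δace1 libraries, against 61809, 45719 and 49524 in the QM6a libraries, so that its Δace1 mean was 2.46% of its QM6a mean while its rank was still 715 in Δace1, against 8 in QM6a. TRIREDRAFT_75383 had 299.6, 300.2 and 334 normalized counts in the Δace1 libraries, against 13574, 12212 and 11945 in the QM6a libraries, and was 40.4-fold lower with a log2 change of -5.32 (standard error 0.09). The other 6 of the 12 were TRIREDRAFT_74854, TRIREDRAFT_54865, TRIREDRAFT_120953, TRIREDRAFT_80639, TRIREDRAFT_75271 and TRIREDRAFT_5119, with Δace1 means of 3.34% to 4.63% of their QM6a means. Their QM6a means ran from 778 in TRIREDRAFT_80639 to 5018 in TRIREDRAFT_74854.

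The remaining 23 genes lay between 5% and 10%, and among them were several of the most abundant transcripts of QM6a. TRIREDRAFT_121820 had the highest QM6a mean of the 38, with 4834, 4474 and 4577 normalized counts in the Δace1 libraries, against 62035, 50293 and 53977 in the QM6a libraries. Though 12.0-fold lower, it held rank 108 in Δace1, against rank 6 in QM6a. TRIREDRAFT_73765 had 3544, 4255 and 4235 normalized counts in the Δace1 libraries, against 43032, 41479.9 and 43535 in the QM6a libraries, with a Δace1 mean of 9.40% of the QM6a mean. By normalized count both lay among the 200 most abundant genes of Δace1, while by TPM they held ranks 450 and 256 there. TRIREDRAFT_122572 had 1468, 1484 and 1439 normalized counts in the Δace1 libraries, against 20012, 20805 and 21059 in the QM6a libraries, and TRIREDRAFT_77906, the last gene inside the rule, had 2252, 2337 and 2226 in the Δace1 libraries, against 26501, 20869 and 20958 in the QM6a libraries. Replicate 1 was the high QM6a library for TRIREDRAFT_77906 and the low one for TRIREDRAFT_122572.

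A further 7 of the 23 passed 10000 normalized counts in QM6a, among them rpl35 and TRIREDRAFT_60847. TRIREDRAFT_76238 had 1613, 1936 and 2151 normalized counts in the Δace1 libraries, against 19401, 18839 and 19069 in the QM6a libraries, and TRIREDRAFT_46238 had 1465, 1352 and 1385 in the Δace1 libraries, against 19300.3, 17768 and 17362 in the QM6a libraries. TRIREDRAFT_121686 had 859, 859 and 942 normalized counts in the Δace1 libraries, against 17297, 16819 and 16941 in the QM6a libraries, with a Δace1 mean of 5.21% of its QM6a mean, the lowest ratio of the 7. TRIREDRAFT_72643 had 963, 1168 and 1109 normalized counts in the Δace1 libraries, against 11923, 13869.6 and 13884 in the QM6a libraries, and TRIREDRAFT_49193 had 1077, 1003 and 1202 in the Δace1 libraries, against 14548, 12595 and 12488 in the QM6a libraries. The ratios of these 2 genes were close, at 8.16% and 8.28%. In QM6a replicate 1 was the low library for TRIREDRAFT_72643 and the high one for TRIREDRAFT_49193. The ratio was 7.05% in TRIREDRAFT_60847 and 9.48% in rpl35. Below 10000 the 23 also held TRIREDRAFT_105444 (5.25%).

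The other 11 of the 23 had QM6a means of 729 to 6526 and Δace1 means of 68.9 to 536 normalized counts. They were, from the lowest ratio up, TRIREDRAFT_65433, TRIREDRAFT_56384, TRIREDRAFT_64167, TRIREDRAFT_68941, TRIREDRAFT_45459, TRIREDRAFT_120160, TRIREDRAFT_74228, TRIREDRAFT_123820, TRIREDRAFT_75000, TRIREDRAFT_70923 and TRIREDRAFT_109187, with ratios of 5.10% to 9.94%. At the 2 ends of their levels, TRIREDRAFT_65433 had 368, 332 and 299 normalized counts in the Δace1 libraries, against 5952, 6925 and 6702 in the QM6a libraries, and TRIREDRAFT_70923 had 78.7, 66.3 and 61.6 in the Δace1 libraries, against 733, 748 and 705 in the QM6a libraries. The shortest of the 38, TRIREDRAFT_120160, had 179, 148 and 142 normalized counts in the Δace1 libraries, against 1977, 2082 and 2064 in the QM6a libraries.

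Of the 38 genes 12 kept a Δace1 mean of at least 600, a level that 1922 genes reached in Δace1, and 10 had a Δace1 mean under 100. By normalized count 0 of the 38 were among the 100 most abundant genes of Δace1 and 15 among those of QM6a. Their median rank by normalized count was 5068 in Δace1 and 218.5 in QM6a. By TPM 0 of the 38 were among the 100 most abundant genes of Δace1 and 6 among those of QM6a.

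**Figure D3:**
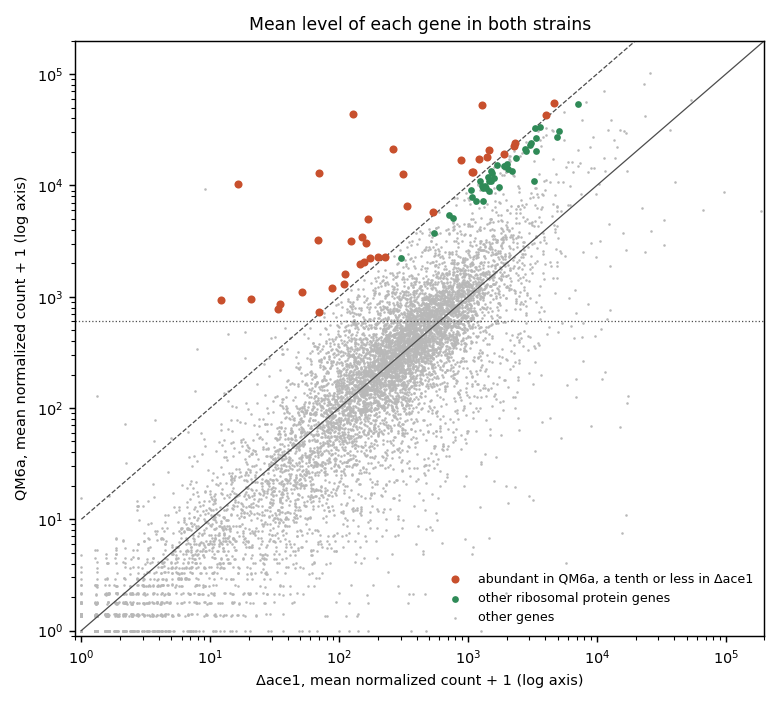
Mean normalized count + 1 of each gene in Δace1 (horizontal) and in QM6a (vertical), both on log axes, with the solid line at equal levels, the dashed line at a Δace1 level of 10% of QM6a and the dotted line at 600 in QM6a. The 38 genes are the upper left corner beyond both lines, with 3 of them below 1%. The other ribosomal protein genes lie in a band just right of the dashed line, and the grey point inside the corner is ace1.

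The coding lengths of the 38 genes ran from 219 bases in TRIREDRAFT_120160 to 2949 in TRIREDRAFT_76238. The median coding length was 1305 bases, against 1450.5 for the genes with a QM6a mean of at least 600 and 1227 for all genes. Estimated counts that are not whole show reads that the authors' quantification split between similar transcripts. They occurred in 3 of the 38, TRIREDRAFT_50618, TRIREDRAFT_68812 and TRIREDRAFT_122572, and in 1.06% of all genes, so the counts of these 3 may include reads of a near-identical sequence.

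Levels of different genes can be compared only per length, and on TPM the order of the 38 changed. The ribosomal protein gene rpl35 (TRIREDRAFT_104491) was the highest, with 1259, 1278 and 1348 TPM in the Δace1 libraries, against 8801, 7554 and 7291 TPM in the QM6a libraries. It held rank 105 of all genes by TPM in Δace1 and rank 13 in QM6a. TRIREDRAFT_60847, with a coding length of 426 bases, had 479, 682 and 609 TPM in the Δace1 libraries, against 4980.0, 4733 and 4788 TPM in the QM6a libraries, and TRIREDRAFT_73765 had 569, 679 and 643 TPM in the Δace1 libraries, against 3772, 3825 and 4031 TPM in the QM6a libraries. These 2 held ranks 282 and 256 in Δace1 and ranks 33 and 52 in QM6a. TRIREDRAFT_77906, TRIREDRAFT_121820, TRIREDRAFT_68812, TRIREDRAFT_121251 and TRIREDRAFT_73536 followed, with QM6a mean TPM of 2794 down to 1654. Of these, TRIREDRAFT_121820 and TRIREDRAFT_68812 had 386, 355 and 345 TPM and 10.8, 11.8 and 14.4 TPM in the Δace1 libraries, and did not differ beyond their spread in QM6a, with 2703, 2305 and 2484 TPM in TRIREDRAFT_121820 and 2705, 2295 and 2414 TPM in TRIREDRAFT_68812. In Δace1 the lowest mean TPM of the 38 were those of TRIREDRAFT_50618 (1.44), TRIREDRAFT_54865 (3.92) and TRIREDRAFT_108553 (4.14). Over the 38 genes the median TPM was 32.6 in Δace1 and 487 in QM6a.

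How many genes fell to 10% or less depended on the scaling of the libraries. The authors' size factors were 1.05 to 1.26 for the Δace1 libraries and 0.837 to 0.917 for the QM6a libraries, although the totals of the strains overlapped, so the normalized counts set Δace1 lower than its share of reads. Of the 38 genes 35 were at 10% or less with TMM scaling, 31 with upper-quartile scaling, 19 with library totals and 18 on TPM. The 18 genes at 10% or less under each of these 5 scalings were the 18 with the lowest ratios, from TRIREDRAFT_50618 to TRIREDRAFT_105444, the last with a TPM ratio of 9.08%. The other 20 ended between 11.9% in TRIREDRAFT_56384 and 17.3% in TRIREDRAFT_77906 on TPM. The scaling moved all genes together. The median log2 change of all tested genes was 0.03 with TMM, 0.19 with the upper quartile, 0.53 for library totals and 0.76 on log2(TPM + 1). Relative to it the median of the 38 genes was, in the same order, -3.86, -3.86, -3.86 and -3.79.

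The limit of 10% cut through a run of genes with similar ratios. Among the genes with a QM6a mean of at least 600, ace1 left out, 3 had a Δace1 mean of at most 1% of the QM6a mean, 12 more lay up to 5%, 23 up to 10%, 49 between 10% and 12.5% and 197 between 12.5% and 20%. The 38 are 1.76% of these genes. Just inside the limit lay TRIREDRAFT_77906 (9.97%), TRIREDRAFT_76238 (9.94%) and TRIREDRAFT_109187 (9.94%), and just outside it TRIREDRAFT_63092 (10.1%), rpl5 (10.2%) and trp (10.3%). The limit on the level lay in a thinner region. The lowest QM6a means inside it were 729 in TRIREDRAFT_70923, 778 in TRIREDRAFT_80639 and 863 in TRIREDRAFT_54865, and the highest outside it were 519 in TRIREDRAFT_105406, 483 in TRIREDRAFT_105454 and 461 in TRIREDRAFT_2583. The mirrored rule, at least 600 in Δace1 and a QM6a mean of at most 10% of it, was met by 119 of 1922 genes, or 6.19%.

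Of the genes named as ribosomal proteins by their symbols, with cpc2, whose product binds the ribosome, rpl35 alone met the rule. It had 2193, 2240.3 and 2484 normalized counts in the Δace1 libraries, against 28070.2, 22901 and 22014 in the QM6a libraries, a Δace1 mean of 9.48% of its QM6a mean and a log2 change of -3.38 (standard error 0.10). The whole list lay close behind it. All 41 of its 41 genes had a QM6a mean of at least 600 and all 41 were called lower in Δace1, against 73.2% of the genes at that level and 39.5% of all tested genes. Their median log2 change was -2.87, against -0.71 over the genes at that level. Their median Δace1 level was 13.4% of the QM6a level, and 40 of the 41 were at 20% or less. The large subunit gene rpl5 stood at 10.2%, with 2961, 3485 and 3462 normalized counts in the Δace1 libraries, against 33950.2, 31049 and 32588 in the QM6a libraries, and cpc2 at 10.7%. The ratios of rpl35 and rpl5 differed by less than the spread of rpl35 among the QM6a libraries, where its coefficient of variation was 13.4%. The gene farthest from the rule was rps30, at 30.0%. All 41 were also called lower with upper-quartile scaling, library totals and on log2(TPM + 1), with medians of -2.72, -2.37 and -2.10.

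The other lists taken by symbol held no gene that met the rule. Of all tested genes 39.5% were called lower with TMM, 34.3% with upper-quartile scaling, 23.8% for library totals and 16.9% on log2(TPM + 1). Of those with a QM6a mean of at least 600 the share was 73.2% with TMM. The translation elongation factor genes tef1a and tef2, the 2 on their list, stood at 25.0% and 38.6% of QM6a. Both were called lower with TMM, upper-quartile scaling, library totals and on log2(TPM + 1), and the median of the list was -1.67 with TMM, -1.17 for library totals and -0.89 on log2(TPM + 1). The list for glycolysis and pentose phosphate enzymes held 4 genes, gpd1, eno1, pgk1 and hxk1, all of them of glycolysis. With TMM and upper-quartile scaling 4 of these 4 were called lower, and 3 on log2(TPM + 1) and with library totals. Their median log2 change was -1.27 with TMM, -0.78 for library totals and -0.50 on log2(TPM + 1). All 4 had a QM6a mean of at least 600, as did both elongation factor genes. The lowest ratio of the 4 glycolysis genes was that of hxk1 (hexokinase), at 24.8%. Of 7 genes of citrate and glyoxylate metabolism 4 were called lower and 3 higher under each of these 4 scalings. Of all tested genes 41.2% were called higher with TMM, 47.4% with upper-quartile scaling, 60.6% with library totals and 69.4% on log2(TPM + 1). The median log2 change of the 7 genes was -1.44 with TMM, -0.94 for library totals and -0.67 on log2(TPM + 1). The lowest of these ratios was that of cit1 (citrate synthase), at 17.4%. Of 2 tested hydrophobin genes of 3 listed, 1 was called lower with TMM and upper-quartile scaling and 0 with library totals or on log2(TPM + 1), while 1 was called higher under each of them. Their median log2 change was -0.08 with TMM and 0.42 with library totals.

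Within QM6a the 38 genes had a median coefficient of variation of 5.15%, against 4.76% over the genes with a QM6a mean of at least 600. The latter include the 38 and were not matched to them for depth. Counting error alone gives a median of 1.46% at the QM6a depth of the 38 genes. The steadiest of the 38 were TRIREDRAFT_121686 (1.46%), TRIREDRAFT_76238 (1.48%) and TRIREDRAFT_123820 (2.47%). The least steady were TRIREDRAFT_73536 (22.3%), TRIREDRAFT_121251 (16.1%) and TRIREDRAFT_77906 (14.2%), and in each of these QM6a replicate 1 was the high library. Of the 38 genes 22 were highest in QM6a replicate 1, 8 in replicate 2 and 8 in replicate 3. Of the genes with a QM6a mean of at least 600, 39.9% were highest in replicate 1, 35.7% in replicate 2 and 24.4% in replicate 3. Replicate 1 was at least 1.1 times both others in 9 of the 38, and in 12.6% of the genes with a QM6a mean of at least 600. The genes above 10000 normalized counts made up 8 of these 9, out of 17 of the 38 above that level. Among all 126 genes above that level, these 17 included, 36, or 28.6%, had the same pattern, and the difference between these shares was not tested.

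**Figure D4:**
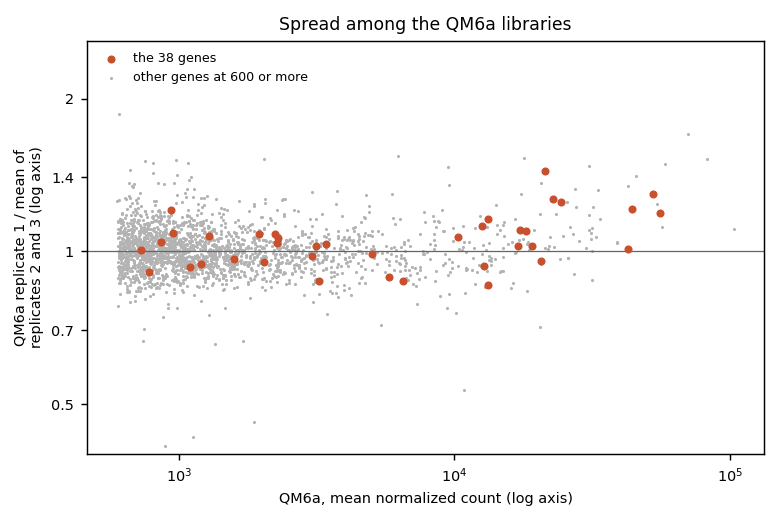
Normalized count of QM6a replicate 1 over the mean of replicates 2 and 3 (vertical, log axis) against the mean QM6a normalized count (horizontal, log axis) for the genes with a QM6a mean of at least 600, with the 38 genes as large points. Most of the large points above 10000 lie above 1, up to 1.44 in TRIREDRAFT_73536.

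Within Δace1 the 38 genes had a median coefficient of variation of 10.2%, against 5.60% over the genes with a QM6a mean of at least 600. Those genes were taken by their QM6a level and were not matched for depth in Δace1. Counting error alone gives a median of 7.16% at the Δace1 depth of the 38 genes. The widest were TRIREDRAFT_50618 (29.2%) and TRIREDRAFT_54865 (28.0%), both with few counts. TRIREDRAFT_60847 varied beyond its counting error of 2.67%, with 971, 1390.2 and 1307 normalized counts in the Δace1 libraries and a coefficient of variation of 18.1%. No Δace1 library was the high one throughout, since 12, 11 and 15 of the genes were highest in replicates 1, 2 and 3.

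Position in the genome was not used by the rule. In the gene order of the reference assembly v2.0 the 38 genes lay mostly apart, and 4 of them formed 2 pairs of direct neighbours. The first pair was TRIREDRAFT_120953, with 118, 117 and 134 normalized counts in the Δace1 libraries, against 3191, 3177 and 3049 in the QM6a libraries, and TRIREDRAFT_105444, with 164, 158 and 157 in the Δace1 libraries, against 3006, 3133 and 2994 in the QM6a libraries. They were 25.5-fold and 19.1-fold lower in Δace1. The second pair was TRIREDRAFT_80639, with 28.6, 27.0 and 42.7 normalized counts in the Δace1 libraries, against 732, 792 and 810.4 in the QM6a libraries, and TRIREDRAFT_5119, with 44.5, 51.5 and 56.9 in the Δace1 libraries, against 1049.9, 1135 and 1119.9 in the QM6a libraries, which were 23.7-fold and 21.6-fold lower. The next 3 genes, TRIREDRAFT_80645, TRIREDRAFT_123274 and TRIREDRAFT_50894, were called higher in Δace1 under each of the 4 scalings, with log2 changes of 3.12, 5.35 and 2.76. Of all tested genes 41.2% were called higher with TMM, 47.4% with upper-quartile scaling, 60.6% with library totals and 69.4% on log2(TPM + 1). TRIREDRAFT_123274 had 596, 568 and 606 normalized counts in the Δace1 libraries, against 12.0, 19.1 and 12.8 in the QM6a libraries.

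Of 72 direct neighbours outside the 38 genes 63 were tested, and 17 of them were called at least 2-fold lower in Δace1, 27.0% against 17.2% of all tested genes. Any call lower was made in 36 of the 63, 57.1% against 39.5% of all tested genes, with a median log2 change of -0.44 against 0.03. The shares at least 2-fold lower were 15.9% of the neighbours and 10.5% of all tested genes with library totals, and 9.09% and 7.46% on log2(TPM + 1). For any call lower they were, with library totals, 36.5% and 23.8%, and on log2(TPM + 1) 24.2% and 16.9%. Over the 177 tested genes within 3 places the share called lower with TMM was 47.5%. No test of these differences was made. There were 2 neighbours that fell as steeply as the 38 but were too scarce in QM6a for the rule. TRIREDRAFT_2583, next to TRIREDRAFT_75271, had 16.7, 12.2 and 9.48 normalized counts in the Δace1 libraries, against 444, 516 and 424 in the QM6a libraries, a log2 change of -5.12, beside -4.48 in TRIREDRAFT_75271. TRIREDRAFT_112578, next to TRIREDRAFT_82623, had 5.56, 2.62 and 0 normalized counts in the Δace1 libraries, against 84.0, 87.2 and 61.9 in the QM6a libraries. Its log2 change was -4.67 (standard error 0.38), beside -5.58 in TRIREDRAFT_82623. Its Δace1 values rest on 7, 3 and 0 estimated counts, around the floor of 3, so the size of its fall is uncertain. In the other direction TRIREDRAFT_22030, next to TRIREDRAFT_121251, had 1623, 1449 and 1266 normalized counts in the Δace1 libraries, against 277, 278 and 235 in the QM6a libraries, a log2 change of 2.48 beside -5.32 in TRIREDRAFT_121251.

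**Figure D5:**
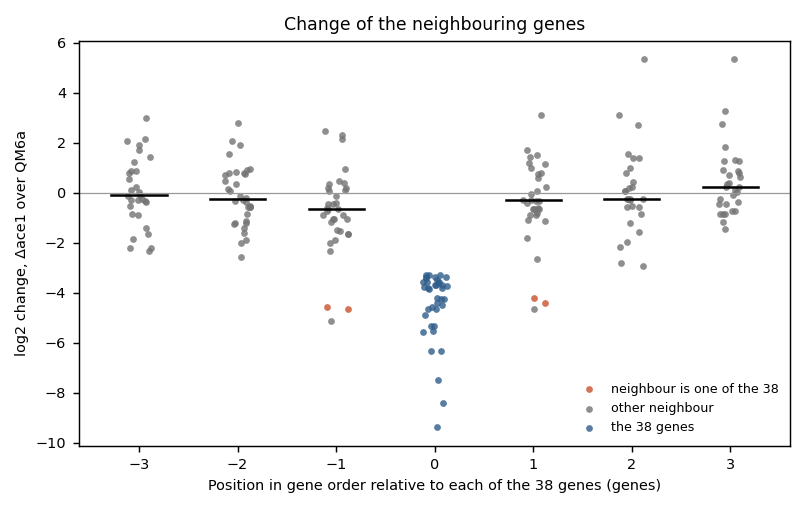
Log2 change (Δace1 over QM6a, TMM) of the tested genes up to 3 places before and after each of the 38 genes in the gene order, with the 38 genes at position 0 and a bar at the median of the neighbours outside the 38 at each position. The medians at the neighbouring positions all lie above -1, and the points near -4 to -5 beside position 0 are the 2 adjacent pairs, TRIREDRAFT_2583 and TRIREDRAFT_112578.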

How the data were processed

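RNA from 3 libraries of Δace1 and 3 of QM6a was sequenced from poly(A)-enriched stranded libraries, per the labels' protocols. Per the submitters' processing notes, the tools were kallisto 0.43.1, FastQC 0.11.5 and DESeq2 1.14.1. The sources used here do not give the transcript set, the genome build or the strand setting, so reads of overlapping genes cannot be told apart. The deposited table of each library holds, per the file headers, the length, the estimated count and the TPM of every transcript. The deposited series table gives a normalized signal for every gene, called the normalized count here, which is the authors' count divided by 1 factor per library. Multiplied by that factor, 91.9% to 96.0% of the values were whole reads within 0.05, and the count test on those reads called 3202 genes higher and 3072 lower. The series table held 0 columns of no listed sample.

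No deposited table pairs transcripts with locus tags, so they were joined by their counts in all 6 libraries. All 9113 genes found a partner among 9115 transcripts, with 99.3% of the values equal after rounding. Of these genes 587 shared their counts with another gene, none with more than 11 counts in total. The reference table (assembly v2.0), used for symbols and gene order, covered 9109 genes and named 234 by symbol. A drop in its start coordinate was taken as a break in the order. Lengths are coding lengths, since 99.1% were multiples of 3.

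Estimated counts were rounded and tested with edgeR 4.0.16 in R 4.3.3 (quasi-likelihood test, TMM, filterByExpr, robust estimation, two-sided) over 7769 genes. Calls needed a Benjamini-Hochberg adjusted p below 0.05, and 3202 genes were called higher and 3072 lower. Standard errors are the size of the log2 change over the root of F. The common biological coefficient of variation was 8.63%. Wilson intervals and the floor of 3 counts cover counting error only. The alternatives were DESeq2 1.42.0, limma 3.58.1 on log2(normalized count + 1) and on log2(TPM + 1 or 0.1), other scalings and filters, a replicate block, leaving out each library, and other thresholds of the rule. The test was tried on simulated counts of 7769 genes with 200 changed ones, where edgeR recovered 98.4% of the 2-fold changes and 100.0% of the larger ones, with 14 false calls. The simulation gave every gene the common biological coefficient of variation and changed far fewer genes than were called in the data. It therefore does not measure errors that come from the scaling of the libraries.

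The 38 genes, the lists and the tests were chosen with earlier results of these data known. The named genes are those with a symbol, the 8 with the lowest ratio, the 8 with the highest QM6a mean by normalized count and by TPM, those beside each threshold, adjacent pairs, and the 3 most and least variable in QM6a. Other named genes were chosen after their values were seen. Lists by product words and features of promoters and proteins were not used here.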

Additional observations from a re-analysis of the deposited data

How the results depend on the processing

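The 38 genes stayed called lower under each of the 17 other settings of the fit, with the replicate block included, where the count was also 38. All 646 values of single members and 306 of 306 values of the other named genes kept their direction and call. The rule used the same contrast, and the other named genes were chosen with their values known, so nothing is read from these counts. The number of genes that the rule chose moved with the settings. It was 19 with library totals, 18 with the ratio taken on TPM, 284 at a ratio of 20%, 15 at 5% and 18 at 10% under each of 5 scalings, the last an alternative chosen after seeing the data. It ranged from 37 to 40 when 1 library was left out, and was 35 with TMM, 30 when every library had to meet the limit, 45 at a level of 300 and 33 at 1000. Over all genes, 1850 were called lower with library totals, 1324 on log2(TPM + 1) and 1319 on log2(TPM + 0.1), against 3072, and 5452 and 5435 were called higher on the TPM scales, against 3202. With library totals 4705 were called higher. Leaving out 1 library gave 2954 to 3054 lower and 3085 to 3211 higher. The median log2 change of the 38 genes was -3.66 with upper-quartile scaling, -3.32 with library totals, -3.04 on log2(TPM + 1) and -3.06 on log2(TPM + 0.1), against -3.82, and -3.87 to -3.83 when 1 library was left out. Relative to the median of all genes it was -3.86 with TMM and -3.79 on log2(TPM + 1).

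The share of counts held by the 38 genes was 0.442% in Δace1 and 5.60% in QM6a without the most abundant gene, and as a share of TPM 0.503% in Δace1 and 4.32% in QM6a. Leaving out 1 library gave 0.527% to 0.542% in Δace1 and 6.19% to 6.47% in QM6a. Same-numbered libraries did not deviate together, with correlations of -0.01, 0.04 and -0.05. With so few libraries these values cannot exclude a shared day or handling, and the labels do not say whether the numbers pair the samples. With the replicate block 3048 genes were called lower and 3175 higher, and the median of the 38 genes was -3.83. Depth limits mainly the Δace1 values, where the lowest count of the 38 genes in a library was 9. The analysis of promoter and protein features was not run, since it needs sequences that were not used here.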
